A study of Homo sapiens with 20 samples.

Results

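The genes of the semaphorins, plexins and neuropilins were followed across WT and GCN2KO keratinocytes, unwounded and wounded. The members were all protein-coding genes whose symbol is SEMA followed by a digit, the plexins PLXNA1 to PLXNA4, PLXNB1 to PLXNB3, PLXNC1 and PLXND1, and the neuropilins NRP1 and NRP2. This gave 31 of the 57500 genes counted, of which 20 were semaphorins, 9 plexins and 2 neuropilins. The rule used gene symbols alone, and it was set with earlier results of these data known. RNA was prepared from 20 cultures of NTERT, a human keratinocyte line immortalized with hTERT, with 5 replicates for each genotype, WT and GCN2KO, in each state, unwounded and HDW. The WT cells had received a control guide RNA and the GCN2KO cells a guide against GCN2, a kinase that senses uncharged tRNA and phosphorylates eIF2α. The GCN2KO cells were an edited pool rather than 1 clone. All cultures of both genotypes had been differentiated into a monolayer in raised calcium. In high-density wounding (HDW), the monolayer was scratched with pipet tips in crossing directions, which left many cells at a wound edge, and RNA was taken 6 h later.

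Semaphorins are ligands that share the sema domain, and plexins are their main receptors. Class 3 semaphorins are secreted and mostly act through a plexin of class A together with a neuropilin, which binds the ligand but has no enzyme activity of its own. The exception among them is SEMA3E, which binds PLXND1 directly. Class 4, 5 and 6 semaphorins span the membrane, and SEMA7A is tethered to it by a lipid anchor. The inner part of a plexin acts on small GTPases, and through these on the cytoskeleton and on adhesion to the matrix. The family was first studied in the guidance of axons. It is also known to act on the migration and adhesion of epithelial cells, and keratinocytes secrete SEMA3A, which repels sensory nerve fibres in the epidermis.

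The libraries held 14083504 to 34611570 counts on genes, with group medians from 23685751 in unwounded WT to 34209033 in wounded WT cells. EIF2AK4, which encodes GCN2, had 4152 to 4555 normalized read counts (scaled for library size by edgeR's TMM method) in unwounded WT and 806 to 961.6 in unwounded GCN2KO libraries, a log2 fold change of -2.28 ± 0.065 (SE, adjusted p = 4.29e-13). After HDW the log2 fold change was -2.27 ± 0.052 (SE, adjusted p = 3.26e-12). All 6 keratinocyte markers (KRT5, KRT14, TP63, ITGA6, COL17A1 and SFN) had counts in every library, and their summed normalized read counts ranged from 413828 to 549434. In each state 4 of the 6 were lower in GCN2KO cells (KRT14, TP63, ITGA6 and COL17A1), KRT5, which makes up most of the sum, and SFN were higher, and the median log2 fold changes of the list were -0.63 and -0.49. COL17A1 had the largest change, at -1.36 ± 0.085 (SE, adjusted p = 1.18e-09) and -1.25 ± 0.053 (SE, adjusted p = 3.20e-10). Over all genes 33.4% were called higher and 33.1% lower before HDW, and 35.9% and 35.8% after it. The 7 markers of keratinocyte differentiation summed to 7772 to 10570 in the 10 WT libraries and to 14079 to 24176 in the 10 GCN2KO libraries, but the list was mixed. IVL, which encodes involucrin, carried the increase, at 3126 ± 254.8 in WT and 11072 ± 2637 in GCN2KO unwounded cells (SD, n = 5). KRT1 was lower in GCN2KO cells in both states and TGM1 after HDW, and 3 of the 6 markers tested were called higher in each state. The part of these markers in the differences between genotypes below was not tested. Of the 4 melanocyte markers, PMEL and MLANA had 10 to 83 reads in every library, TYR was at 0 in all, and the list summed to 56.48 to 100.3 normalized read counts. MLANA was called higher in GCN2KO cells after HDW, at 0.79 ± 0.19 (SE, adjusted p = 0.0021). The 3 immune markers summed to at most 3.975 normalized read counts, the 3 endothelial markers to at most 18.2 and the 6 fibroblast markers to 664 to 1039. Most of the fibroblast sum was COL1A1, with group means of 736 to 892.2. DCN, the next, had group means of at most 54.67. In bulk RNA, a lower level per cell and fewer cells that express a gene cannot be told apart.

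Levels were compared between genes per length, as CPM (counts over the library total after TMM scaling) per kilobase of merged exons. In WT unwounded cells PLXNB2, a class B plexin, had the highest level of the 31 genes at 108 ± 5.35 (SD, n = 5). SEMA3F, a secreted ligand of NRP2, followed at 55.4 ± 2.29, then SEMA4B at 33.2 ± 1.42, PLXNB1 at 29.8 ± 0.506, SEMA3C at 26 ± 0.718, PLXNA1 at 18.2 ± 0.947 and PLXNA2 at 11.9 ± 0.706 CPM per kilobase. Each of these 7 differed from the next in the order by more than the larger of the SDs. PLXNA3 came next at 4.48, and the remaining 23 genes lay between 3.06 for NRP1 and 0.0162 for SEMA6A. Many neighbours in the lower part of the order were closer than their SD. NRP1 and SEMA4C, at 3.06 and 3.04, and SEMA6C, SEMA5A and SEMA4D, at 0.366, 0.364 and 0.36, could not be ordered.

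**Figure D1:**
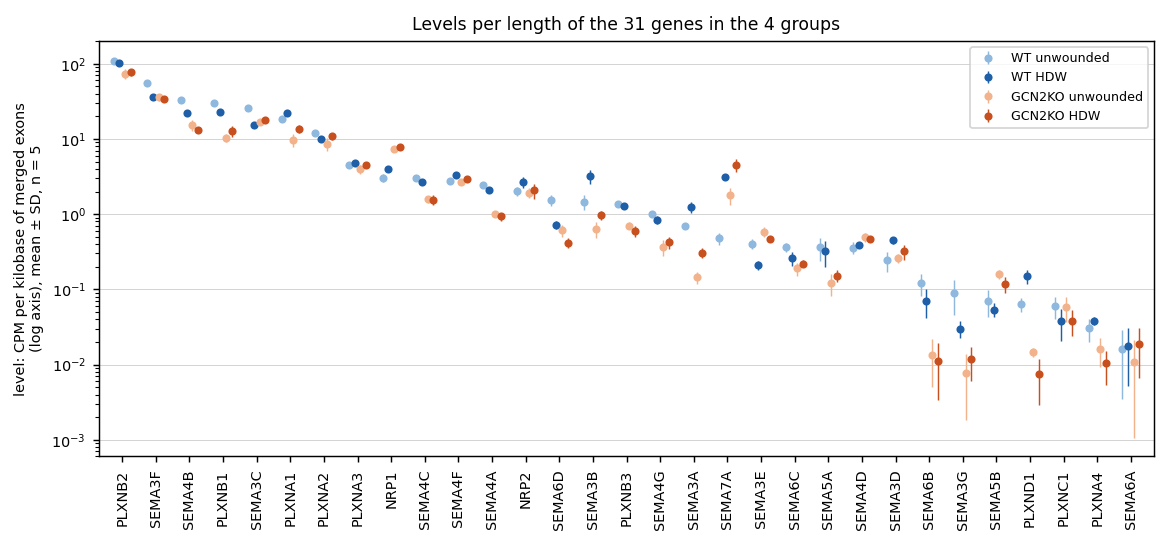
Level of each gene on a log axis, in CPM per kilobase of merged exons, as the mean ± SD of 5 libraries in each of the 4 groups, with genes ordered by WT unwounded cells. PLXNB2 is highest in all 4 groups. GCN2KO levels of NRP1 lie above the WT levels, and those of PLXNB1, SEMA4B and PLXND1 lie below them. Lower bars that would reach 0 were shortened to stay on the log axis.

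Summed over the 20 semaphorins, the level was 130 ± 3.75 (SD, n = 5) CPM per kilobase in unwounded WT and 78.4 ± 5.98 in unwounded GCN2KO cells. After HDW the sum was 91.9 ± 3.98 in WT and 78.6 ± 1.75 in GCN2KO cells. SEMA3F alone made up 38.7% to 45.3% of these sums. The 9 plexins summed to 173 ± 7.05 and 163 ± 3.72 in unwounded WT and HDW cells, and to 107 ± 16.7 and 120 ± 12.8 in the corresponding GCN2KO cells, with PLXNB2 at 62% to 68.9% of the total. The 2 neuropilins went the other way. They summed to 5.08 ± 0.695 and 6.69 ± 0.787 in WT cells and to 9.24 ± 0.842 and 10 ± 0.911 in GCN2KO cells. The lowest semaphorin sum in wounded WT libraries was 86.1 and the highest in GCN2KO libraries was 83.6. For the plexins these were 159 and 141.

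The genes lie on 12 chromosomes, with 7 on chromosome 3 and 5 on chromosome 7. SEMA3F and SEMA3B are 78483 bases apart on chromosome 3, and SEMA3E, SEMA3A and SEMA3D follow each other on chromosome 7 with gaps of 306638 and 502829 bases (GRCh38, GENCODE release 44). Reads could be shared with another gene where exons overlap. This holds for 28% of the exonic bases of SEMA4G (with MRPL43, on the other strand), 20.4% of PLXNB3 (with SRPK3, on the same strand) and 9.88% of PLXNC1 (with CEP83 and others). The other members share less than 5%.

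Promoter windows of RefSeq (GRCh38.p14), 250 bases before to 50 after each start, were found for 27 of the 31 genes, in 48 windows, and were searched on both strands for 4 motifs. CARE (TGATGNAA), the element bound by ATF4, was in 2 of the 48 windows, 1 of SEMA3C and 1 of SEMA4A. It was in 3.62% of all 35116 windows. AP-1 (TGANTCA) was in 1 window, of PLXNC1, against 7.71% of all windows. ARE (TGACNNNGC), the element bound by NRF2, was in 3 windows, of PLXNA4, SEMA3B and SEMA6D, against 13.3%. TEAD (GGAATG) was in 7 windows of PLXNB1, PLXNB3, SEMA3B, SEMA3F and SEMA4A, against 14%. The search used these letters alone, and a match is not a binding site. The 250 bases before the start are shown for PLXND1 and SEMA7A, the DE genes of the interaction of genotype and HDW. They are also shown for SEMA3C, in a window picked because it holds a CARE match. Capitals mark the CARE match, and the first base is the farthest from the start. PLXND1 lies on the minus strand at chr3:129606677-129606926, SEMA7A on the minus strand at chr15:74433959-74434208 and SEMA3C on the minus strand at chr7:80922390-80922639.
PLXND1: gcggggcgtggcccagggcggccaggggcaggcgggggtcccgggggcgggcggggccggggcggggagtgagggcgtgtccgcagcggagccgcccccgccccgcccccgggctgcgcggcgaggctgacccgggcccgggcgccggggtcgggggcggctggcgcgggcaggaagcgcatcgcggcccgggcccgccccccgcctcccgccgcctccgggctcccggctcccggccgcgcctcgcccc
SEMA7A: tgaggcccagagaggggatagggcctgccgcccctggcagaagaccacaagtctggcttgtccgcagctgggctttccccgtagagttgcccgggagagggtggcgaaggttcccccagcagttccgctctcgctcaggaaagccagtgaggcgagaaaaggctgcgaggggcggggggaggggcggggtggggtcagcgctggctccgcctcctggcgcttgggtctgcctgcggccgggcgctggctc
SEMA3C: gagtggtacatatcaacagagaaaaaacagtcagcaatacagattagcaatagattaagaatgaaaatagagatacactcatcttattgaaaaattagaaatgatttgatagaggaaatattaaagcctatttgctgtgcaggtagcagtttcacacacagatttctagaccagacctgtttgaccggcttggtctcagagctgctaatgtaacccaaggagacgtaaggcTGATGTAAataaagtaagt
None of the 4 motifs was found in the windows of PLXND1 and SEMA7A. In SEMA3C the CARE match covered bases -19 to -12 from the start. G and C made up 88.8% of the PLXND1 bases, 70% of the SEMA7A bases and 36.4% of the SEMA3C bases, with a median of 58% over all windows.

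The first comparison asked how GCN2KO cells differ from WT cells before wounding. Of the 31 genes, 28 passed the filter on low counts. Of these, 5 were called higher and 18 lower in GCN2KO cells (17.9% and 64.3%) by edgeR's quasi-likelihood test with p-values adjusted by Benjamini-Hochberg over all genes tested and a threshold of 0.05. Of all 15348 genes tested, 33.4% were called higher and 33.1% lower. Genes that also changed by 1 or more on the log2 scale were called DE genes. By that rule 3 members were higher (NRP1, SEMA5B and SEMA7A) and 9 lower (PLXNB1, PLXND1, SEMA3A, SEMA3B, SEMA4A, SEMA4B, SEMA4G, SEMA5A and SEMA6D). Over all genes 8.21% and 8.22% were such DE genes. The median log2 fold change of the 28 members was -0.77, against 0.0042 over all genes. The 5 GCN2KO libraries did not overlap the 5 WT libraries in 20 of the 28, and over all genes tested the groups did not overlap in 53.3%. SEMA3G, SEMA6A and SEMA6B had too few counts to be tested. PLXND1 passed the filter through its WT counts alone, and PLXNA4 mostly through its WT counts.

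After HDW 28 members were again tested between genotypes, and 6 were called higher and 17 lower in GCN2KO cells (21.4% and 60.7%). Over all 15855 genes 35.9% were called higher and 35.8% lower. SEMA3E and SEMA5B were DE genes in the higher direction, and PLXNA4, PLXNB3, PLXND1, SEMA3A, SEMA3B, SEMA4A and SEMA5A in the lower direction. Over all genes 7.1% were higher and 7.83% lower DE genes. The median of the members was -0.44, against 0.002 over all genes, and the genotypes did not overlap in 18 of the 28 genes and in 57.2% of all genes. PLXNA4 and PLXND1 passed the filter through their WT counts alone. The comparisons before and after HDW use different libraries of both genotypes.

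**Figure D2:**
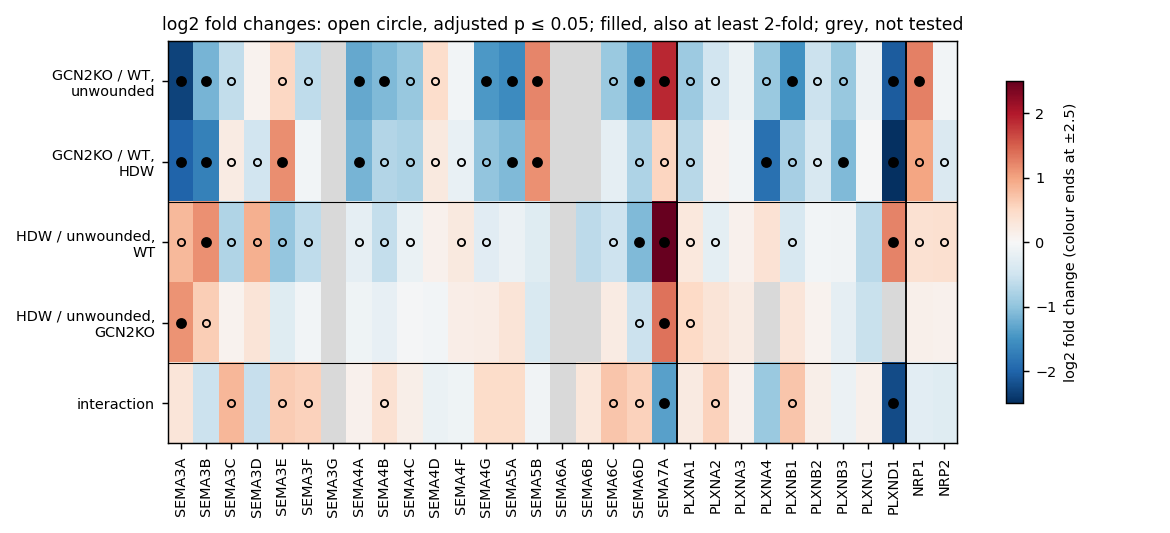
The log2 fold change of each gene (columns: semaphorins, plexins, neuropilins) in the 4 comparisons and the interaction (rows), in colour. Open circles mark an adjusted p of at most 0.05 and filled circles a DE gene, and grey cells were not tested. The upper rows hold 18 and 17 genes called lower in GCN2KO cells, and the row for HDW in GCN2KO cells holds 5 circles.

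The class 3 ligands SEMA3A and SEMA3B were lower in GCN2KO cells in both states. SEMA3A had 161, 174.9, 193.2, 205.3 and 199.5 normalized read counts in the 5 WT unwounded libraries and 352.4, 252.4, 313.1, 405.8 and 348.5 in the WT HDW libraries. GCN2KO cells had 42.06, 42.92, 43.85, 27.74 and 35.46 unwounded and 97.58, 77.8, 90.58, 75.23 and 67.99 after HDW. Every GCN2KO library, wounded or not, lay below every WT library. Between genotypes the log2 fold change was -2.31 ± 0.14 (SE, adjusted p = 5.77e-10) before and -2.01 ± 0.13 (SE, adjusted p = 1.30e-08) after HDW. SEMA3B, a secreted ligand that is known as a tumour suppressor, had 244.4, 317.6, 164.2, 265.7 and 223.6 normalized read counts in unwounded WT and 451.9, 683.9, 603.4, 466.6 and 445.4 in wounded WT libraries. In GCN2KO cells the values were 111.4, 85.84, 77.18, 117.7 and 140.2 unwounded and 171.8, 185.7, 156, 127.1 and 168.5 after HDW. The genotypes did not overlap within either state, and GCN2KO HDW libraries overlapped WT unwounded libraries. The log2 fold changes between genotypes were -1.16 ± 0.18 (SE, adjusted p = 2.33e-05) and -1.69 ± 0.13 (SE, adjusted p = 6.50e-08).

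SEMA3E, the ligand of PLXND1, was the class 3 gene that was higher in GCN2KO cells in both states. It had 111.3, 80.3, 90.57, 94.77 and 115.7 normalized read counts in unwounded WT, 60.7, 44.58, 55.7, 47.86 and 44.97 in wounded WT, 160.3, 159.4, 144.7, 140.4 and 107.2 in unwounded GCN2KO and 96.75, 124.6, 112.4, 113.7 and 120.7 in wounded GCN2KO libraries. The genotypes overlapped before wounding and did not overlap after it. The log2 fold change was 0.52 ± 0.14 (SE, adjusted p = 0.00324) before and 1.16 ± 0.12 (SE, adjusted p = 6.79e-07) after HDW. SEMA3C and SEMA3F, the most abundant secreted ligands, were lower in GCN2KO cells before wounding by log2 fold changes of -0.62 ± 0.064 (SE, adjusted p = 3.12e-07) and -0.64 ± 0.075 (SE, adjusted p = 1.48e-06). After HDW SEMA3C was higher, at 0.20 ± 0.044 (SE, adjusted p = 8.03e-04), and SEMA3F had a log2 fold change of -0.07 ± 0.055 (SE, adjusted p = 0.26). SEMA3D had 58.15 ± 17.41 and 62.07 ± 8.897 normalized read counts (SD, n = 5) in WT and GCN2KO unwounded cells and was lower in GCN2KO cells after HDW, at -0.48 ± 0.14 (SE, adjusted p = 0.00688). SEMA3G had 4 to 17 reads in unwounded WT libraries, 3 to 6 in wounded WT and 0 to 3 in the 10 GCN2KO libraries. With no filter on low counts, its log2 fold change between genotypes was -3.31 ± 0.55 (SE, adjusted p = 1.10e-08) before and -1.31 ± 0.53 (SE, adjusted p = 0.0511) after HDW.

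Of the class 4 semaphorins, which span the membrane and mostly signal through class B plexins, SEMA4A, SEMA4B, SEMA4C and SEMA4G were lower in GCN2KO cells in both states. SEMA4A had 498.8, 410.4, 485.5, 484.1 and 488.7 normalized read counts in unwounded WT and 397.9, 413, 416.9, 419.8 and 401.3 in wounded WT libraries, against 227.4, 208.5, 176.3, 187.4 and 188.3 in unwounded GCN2KO and 167.6, 174.8, 180.3, 165.5 and 221.2 in wounded GCN2KO libraries. All 10 GCN2KO libraries were below all 10 WT libraries. The log2 fold changes were -1.27 ± 0.09 (SE, adjusted p = 4.72e-09) and -1.17 ± 0.076 (SE, adjusted p = 1.20e-08). SEMA4B had 6383, 6800, 6451, 7093 and 6687 normalized read counts in unwounded WT and 4454, 4297, 4650, 4115 and 4549 in wounded WT libraries. In GCN2KO cells it had 3877, 3297, 2708, 2950 and 2668 unwounded and 2480, 2584, 2612, 2469 and 3124 after HDW. WT HDW libraries lay between the WT unwounded and the GCN2KO libraries, with no overlap. The log2 fold changes between genotypes were -1.10 ± 0.093 (SE, adjusted p = 3.29e-08) and -0.73 ± 0.062 (SE, adjusted p = 1.22e-07).

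SEMA4G had 153, 151.7, 163, 170 and 138.8 normalized read counts in unwounded WT, 143.3, 109.4, 112.2, 143.6 and 130.6 in wounded WT, 56.84, 35.26, 52.63, 71.44 and 63.32 in unwounded GCN2KO and 56.71, 66.09, 58.71, 55.17 and 84.27 in wounded GCN2KO libraries. The 10 GCN2KO libraries were again all below the WT libraries, by log2 fold changes of -1.44 ± 0.14 (SE, adjusted p = 2.44e-07) and -0.98 ± 0.13 (SE, adjusted p = 1.21e-05). MRPL43, whose exons overlap those of SEMA4G, had log2 fold changes of 0.13 and -0.05 in the same comparisons. SEMA4C had 546.7 ± 23.1 normalized read counts (SD, n = 5) in WT and 285.8 ± 32.27 in GCN2KO cells before HDW, a log2 fold change of -0.94 ± 0.084 (SE, adjusted p = 7.08e-08), and had -0.80 ± 0.087 (SE, adjusted p = 1.68e-06) after it. SEMA4D, a ligand of PLXNB1, was higher in GCN2KO cells by 0.43 ± 0.13 (SE, adjusted p = 0.00819) and 0.25 ± 0.078 (SE, adjusted p = 0.0101). SEMA4F had -0.07 ± 0.074 (SE, adjusted p = 0.425) before and -0.18 ± 0.059 (SE, adjusted p = 0.015) after HDW.

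The class 5 genes went in opposite directions. SEMA5A had 184.8, 107.1, 159.4, 76.18 and 116.6 normalized read counts in unwounded WT, 180.4, 61.41, 96.2, 125.6 and 105.5 in wounded WT, 40.93, 49.05, 35.08, 62.2 and 26.17 in unwounded GCN2KO and 42.54, 50.19, 61.23, 66.87 and 47.88 in wounded GCN2KO libraries. The genotypes did not overlap before wounding and overlapped in 1 WT HDW library, replicate 2, after it. The log2 fold changes were -1.57 ± 0.25 (SE, adjusted p = 3.89e-05) and -1.10 ± 0.24 (SE, adjusted p = 9.20e-04), and the latter was -0.87 without WT HDW replicate 1. SEMA5A lies on chromosome 5, where the 17 genes tested within 5 megabases of it had log2 fold changes with a median of 0.47 between GCN2KO and WT unwounded cells. SEMA5B, on chromosome 3, had 27.82, 16.06, 12.08, 18.58 and 11.57 normalized read counts in unwounded WT, 12.65, 16.82, 15.19, 10.97 and 10.38 in wounded WT, 39.79, 38.32, 29.82, 42.03 and 43.06 in unwounded GCN2KO and 40.87, 30.12, 25.16, 26.75 and 22.98 in wounded GCN2KO libraries. All GCN2KO libraries lay above the WT libraries of the same state, by log2 fold changes of 1.23 ± 0.23 (SE, adjusted p = 1.64e-04) and 1.15 ± 0.21 (SE, adjusted p = 2.29e-04). Its raw counts were low, at 9 to 20 in WT and 16 to 51 in GCN2KO libraries. Without GCN2KO HDW replicate 1 the second value was 0.98.

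The class 6 genes, ligands of class A plexins, were lower in GCN2KO cells where they were called. SEMA6D had 411.4, 315.8, 474.6, 319.6 and 368.2 normalized read counts in unwounded WT and 210.8, 154.8, 169.6, 172.5 and 168.7 in wounded WT libraries, and 171.7, 183.9, 116.7, 137 and 141.8 in unwounded GCN2KO and 85.07, 97.04, 92.26, 112 and 127.4 in wounded GCN2KO libraries. Its highest libraries were the 5 WT unwounded ones, and GCN2KO unwounded libraries overlapped those of WT HDW. The log2 fold changes between genotypes were -1.34 ± 0.14 (SE, adjusted p = 3.06e-07) and -0.78 ± 0.12 (SE, adjusted p = 3.76e-05). SEMA6C had -0.92 ± 0.17 (SE, adjusted p = 1.47e-04) before and -0.23 ± 0.16 (SE, adjusted p = 0.213) after HDW. SEMA6B had 11 to 14 reads in unwounded WT, 5 to 18 in wounded WT and 1 to 4 in the 10 GCN2KO libraries. With no filter its log2 fold changes were -3.02 ± 0.49 (SE, adjusted p = 4.28e-09) and -2.76 ± 0.5 (SE, adjusted p = 2.18e-05). SEMA6A had at most 15 reads in any library and was called in no comparison with no filter.

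SEMA7A, which binds PLXNC1 and β1 integrins, was the semaphorin with the largest increase in unwounded GCN2KO cells. It had 43.72, 64.24, 41.06, 59.46 and 53.01 normalized read counts in unwounded WT, 345.6, 348.3, 330.8, 325 and 365.8 in wounded WT, 170.5, 202.3, 197.3, 267.3 and 136.8 in unwounded GCN2KO and 602.2, 572.2, 473, 484.8 and 353.4 in wounded GCN2KO libraries. GCN2KO unwounded libraries lay above all WT unwounded libraries and below all WT HDW libraries. The log2 fold change between genotypes was 1.89 ± 0.18 (SE, adjusted p = 1.56e-07) before and 0.54 ± 0.11 (SE, adjusted p = 7.11e-04) after HDW, when 1 GCN2KO library lay within the WT range.

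None of the 9 plexins was called higher in GCN2KO cells, and 7 were called lower before and 6 after HDW, where 33.4% and 33.1% of all genes were called higher and lower before and 35.9% and 35.8% after HDW. These counts include PLXND1 in both states and PLXNA4 after HDW. Both passed the filter there through WT counts alone, so they could hardly have been called higher. Before HDW PLXNA4 also passed the filter mostly through its WT counts. PLXNB1, the receptor of SEMA4D, had 8283, 8310, 8352, 8603 and 8246 normalized read counts in unwounded WT, 6597, 6053, 6265, 6537 and 6379 in wounded WT, 3440, 2955, 2465, 3055 and 2675 in unwounded GCN2KO and 2933, 3506, 3526, 3389 and 4594 in wounded GCN2KO libraries. All GCN2KO libraries were below all WT libraries, by log2 fold changes of -1.51 ± 0.081 (SE, adjusted p = 2.26e-10) and -0.83 ± 0.088 (SE, adjusted p = 1.27e-06). PLXNB3 had 274.2, 287.3, 274.1, 266.6 and 280.5 normalized read counts in unwounded WT, 277.4, 259.1, 262.5, 269.2 and 242.2 in wounded WT, 152.3, 141, 116.7, 158 and 143.5 in unwounded GCN2KO and 115.1, 135.5, 115.7, 91.95 and 140.8 in wounded GCN2KO libraries. Here too the genotypes did not overlap, with log2 fold changes of -0.95 ± 0.094 (SE, adjusted p = 2.11e-07) and -1.11 ± 0.095 (SE, adjusted p = 1.43e-07). SRPK3, which overlaps PLXNB3, had 5.679 to 11.81 normalized read counts on average in the 4 groups. PLXNB2 was lower by -0.54 ± 0.097 (SE, adjusted p = 1.36e-04) and -0.40 ± 0.062 (SE, adjusted p = 4.99e-05).

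PLXND1, the receptor of SEMA3E, had low counts and entered the tests between genotypes through its WT libraries alone. Its normalized read counts were 19.87, 16.06, 21.74, 12.08 and 18.31 in unwounded WT and 49.74, 31.97, 37.98, 51.85 and 34.6 in wounded WT libraries. In GCN2KO cells they were 4.547, 4.599, 3.508, 4.203 and 3.377 unwounded and 0.834, 3.346, 1.677, 3.344 and 0.9577 after HDW. These rest on 9 to 19 and 38 to 59 raw reads per WT library and on 3 to 5 and 1 to 4 reads per GCN2KO library. The 4 groups did not overlap each other, but the gap between unwounded and wounded GCN2KO libraries, from 3.377 to 3.346, was worth less than 1 read. Between genotypes the log2 fold change was -2.08 ± 0.29 (SE, adjusted p = 8.30e-06) before and -4.34 ± 0.31 (SE, adjusted p = 3.04e-08) after HDW. With reads summed over the 5 libraries, 69 in WT and 20 in GCN2KO cells before HDW gave a ratio of 4.35 (95% exact interval 2.61 to 7.55), and 234 and 10 after HDW gave 21.4 (11.4 to 45.2), intervals that cover counting error only.

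Of the class A plexins, the receptors that pair with neuropilins, PLXNA1 was lower in both states, at -0.91 ± 0.11 (SE, adjusted p = 1.46e-06) and -0.69 ± 0.068 (SE, adjusted p = 5.54e-07). PLXNA2 was lower before HDW, at -0.47 ± 0.11 (SE, adjusted p = 0.00182), and had a log2 fold change of 0.10 ± 0.065 (SE, adjusted p = 0.165) after it. PLXNA3 had 1508 ± 53.79 and 1334 ± 176.3 normalized read counts (SD, n = 5) before and 1622 ± 111.7 and 1534 ± 35.66 after HDW in WT and GCN2KO cells, and was not called in either. PLXNA4 had 11.92, 19.63, 19.32, 12.08 and 8.675 normalized read counts in unwounded WT, 15.17, 20.19, 16.88, 16.95 and 19.89 in wounded WT, 5.684, 12.26, 8.771, 4.203 and 6.754 in unwounded GCN2KO and 5.004, 2.51, 3.355, 5.016 and 8.619 in wounded GCN2KO libraries, or 3 to 24 raw reads. The genotypes overlapped before HDW and not after it. Its log2 fold change was -0.93 ± 0.33 (SE, adjusted p = 0.0205) before HDW, a call that was lost with DESeq2 (adjusted p = 0.0558) and without WT unwounded replicate 2 (adjusted p = 0.0509), WT unwounded replicate 3 (adjusted p = 0.0673) or GCN2KO unwounded replicate 4 (adjusted p = 0.0591). After HDW it was -1.87 ± 0.27 (SE, adjusted p = 2.58e-05). PLXNC1, the receptor of SEMA7A, had group means of 10.91 to 17.16 normalized read counts and was called in no comparison.

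NRP1, a co-receptor of class 3 semaphorins and of VEGF, was higher in GCN2KO cells. It had 916.1, 1119, 867.1, 1181 and 986 normalized read counts in unwounded WT, 1218, 1500, 1414, 1245 and 1278 in wounded WT, 2527, 2587, 2279, 2554 and 2144 in unwounded GCN2KO and 2391, 2707, 2618, 2601 and 2803 in wounded GCN2KO libraries. All 10 GCN2KO libraries lay above all 10 WT libraries. The log2 fold changes were 1.26 ± 0.089 (SE, adjusted p = 4.40e-09) and 0.98 ± 0.061 (SE, adjusted p = 8.29e-09). NRP2 had -0.06 ± 0.11 (SE, adjusted p = 0.635) before HDW. After HDW it was called lower, at -0.37 ± 0.14 (SE, adjusted p = 0.028), but the call was lost without any 1 of WT HDW replicates 2 and 3 and GCN2KO HDW replicates 1 to 4 (log2 fold changes of -0.27 to -0.36, adjusted p = 0.0529 to 0.0715).

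**Figure D3:**
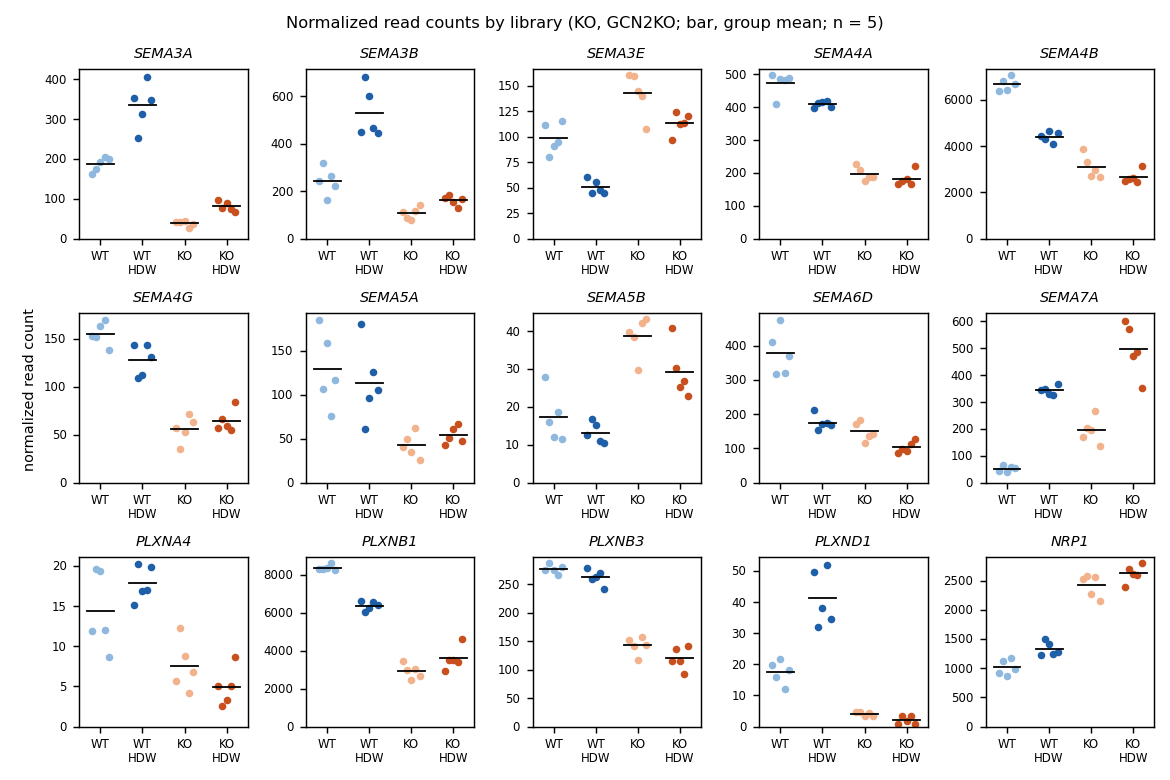
Normalized read counts (linear axes from 0) of the 15 genes that were DE genes in at least 1 comparison, with 1 point per library and a bar at the mean of the 5 libraries of each group. In SEMA3A, SEMA4A, SEMA4B, SEMA4G, PLXNB1, PLXNB3 and PLXND1 every GCN2KO point lies below every WT point, and in NRP1 every GCN2KO point lies above.

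HDW in WT cells was compared with unwounded WT cells to find the genes that respond to wounding. Of 29 members tested, 9 were called higher and 11 lower after HDW (31% and 37.9%), where 26.1% and 25.2% of all 15348 genes were called. DE genes were SEMA7A, SEMA3B and PLXND1 in the higher direction and SEMA6D in the lower direction, where 2.62% and 1.55% of all genes were. The median log2 fold change of the members was -0.14, and that of all genes was -0.0024. The groups did not overlap in 15 members and in 36.9% of all genes. In GCN2KO cells 26 members were tested, and 4 were called higher and 1 lower (15.4% and 3.85%), where 11.9% and 10.8% of all 15791 genes were called. SEMA3A and SEMA7A were DE genes in the higher direction and none in the lower, where 0.475% and 0.196% of all genes were. The median of the members was 0.12, that of all genes -0.00097, and the groups did not overlap in 3 members and in 15.2% of all genes. The SD of PLXNB2, the most abundant member, was 1118 normalized read counts in unwounded WT, 812.2 in wounded WT, 2431 in unwounded GCN2KO and 1670 in wounded GCN2KO cells.

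SEMA7A had the largest response in both genotypes. It rose after HDW by 2.70 ± 0.098 (SE, adjusted p = 2.60e-11) on the log2 scale in WT and 1.36 ± 0.17 (SE, adjusted p = 3.02e-04) in GCN2KO cells, and in both the HDW libraries lay above all unwounded libraries. SEMA3A rose by 0.81 ± 0.11 (SE, adjusted p = 2.19e-05) in WT and 1.13 ± 0.16 (SE, adjusted p = 5.40e-04) in GCN2KO cells, and SEMA3B by 1.14 ± 0.15 (SE, adjusted p = 1.66e-05) and 0.61 ± 0.15 (SE, adjusted p = 0.0134). SEMA3D rose in WT cells by 0.89 ± 0.16 (SE, adjusted p = 2.21e-04) and had 0.33 ± 0.16 (SE, adjusted p = 0.151) in GCN2KO cells. Of the other class 3 ligands, SEMA3C, SEMA3E and SEMA3F fell in WT cells. SEMA3C went from 4551 ± 126 to 2687 ± 53.7 normalized read counts (SD, n = 5), a log2 fold change of -0.76 ± 0.031 (SE, adjusted p = 8.74e-11), SEMA3F from 7683 ± 317.5 to 4938 ± 410.5, at -0.64 ± 0.051 (SE, adjusted p = 7.58e-08), and SEMA3E had -0.96 ± 0.13 (SE, adjusted p = 2.34e-05). In GCN2KO cells these 3 genes had log2 fold changes of 0.08 ± 0.068 (SE, adjusted p = 0.408), -0.06 ± 0.076 (SE, adjusted p = 0.596) and -0.31 ± 0.12 (SE, adjusted p = 0.086).

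Among the membrane-bound semaphorins, SEMA6D fell by a log2 fold change of -1.11 ± 0.11 (SE, adjusted p = 1.13e-06) in WT cells and by -0.53 ± 0.15 (SE, adjusted p = 0.0204) in GCN2KO cells. The latter call was lost without GCN2KO HDW replicate 1, 2 or 3 (adjusted p = 0.0527, 0.0528 and 0.0574). SEMA4B had -0.60 ± 0.039 (SE, adjusted p = 9.09e-09) and SEMA6C -0.51 ± 0.16 (SE, adjusted p = 0.015) in WT cells. SEMA4A, SEMA4C and SEMA4G had smaller decreases in WT cells, at -0.22 ± 0.055 (SE, adjusted p = 0.00432), -0.17 ± 0.051 (SE, adjusted p = 0.01) and -0.29 ± 0.1 (SE, adjusted p = 0.0264). The calls of SEMA4C and SEMA4G were lost when all 20 samples were fitted together (adjusted p = 0.11 and 0.0848). That of SEMA4G was also lost without WT unwounded replicate 3 (adjusted p = 0.056) or 4 (adjusted p = 0.0756) and without WT HDW replicate 2 (adjusted p = 0.057) or 3 (adjusted p = 0.071). SEMA4F rose by 0.25 ± 0.062 (SE, adjusted p = 0.00332). SEMA4D, SEMA5A, SEMA5B and SEMA6B were not called in WT cells. Of the class 4, 5 and 6 genes, SEMA6D was the 1 called in GCN2KO cells.

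PLXND1 was the plexin with the largest increase after HDW in WT cells, at 1.24 ± 0.21 (SE, adjusted p = 1.63e-04). In GCN2KO cells it had too few counts to be tested, and with no filter it was not called either (adjusted p = 0.317). PLXNA1 rose in both genotypes, by 0.26 ± 0.04 (SE, adjusted p = 6.71e-05) in WT and 0.49 ± 0.12 (SE, adjusted p = 0.0127) in GCN2KO cells. PLXNB1 and PLXNA2 fell in WT cells, at -0.40 ± 0.032 (SE, adjusted p = 8.07e-08) and -0.25 ± 0.05 (SE, adjusted p = 6.00e-04), and had 0.31 ± 0.11 (SE, adjusted p = 0.0636) and 0.33 ± 0.12 (SE, adjusted p = 0.0656) in GCN2KO cells. PLXNB2, the most abundant receptor, had -0.07 ± 0.04 (SE, adjusted p = 0.137) in WT and 0.08 ± 0.11 (SE, adjusted p = 0.619) in GCN2KO cells, and was not called. NRP1 and NRP2 rose in WT cells by 0.39 ± 0.08 (SE, adjusted p = 8.22e-04) and 0.40 ± 0.11 (SE, adjusted p = 0.0057), and had 0.13 ± 0.072 (SE, adjusted p = 0.203) and 0.11 ± 0.14 (SE, adjusted p = 0.583) in GCN2KO cells.

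An interaction fitted over all 20 libraries compared the response to HDW of the genotypes, and in it a positive value means a more positive log2 fold change in GCN2KO cells. Of 29 members tested, 8 were called higher and 2 lower (27.6% and 6.9%), where 11.2% and 12.5% of all 16536 genes were called. SEMA7A and PLXND1 were DE genes in the lower direction and no member was in the higher direction, where 2.15% and 1.16% of all genes were. The interaction was -1.35 ± 0.23 (SE, adjusted p = 1.31e-04) for SEMA7A and -2.24 ± 0.5 (SE, adjusted p = 0.00212) for PLXND1. That of SEMA7A means a smaller fold from a higher start. Its mean normalized read counts went from 52.3 to 343.1 in WT and from 194.9 to 497.1 in GCN2KO cells. The wounded level was thus not lower in GCN2KO cells. PLXND1 again passed the filter through WT counts, with 1 to 5 reads per GCN2KO library, and SEMA7A was the 1 lower DE gene that did not rest on so few reads. The promoter sequences of both genes are given above.

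**Figure D4:**
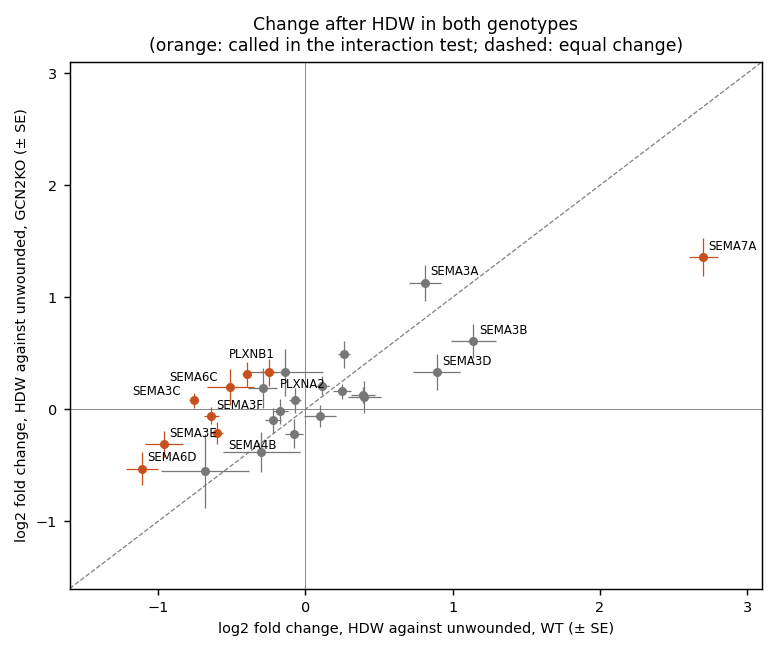
Log2 fold change of each gene after HDW in WT cells (horizontal axis) and in GCN2KO cells (vertical axis), with bars of 1 SE, for the genes tested in both. The dashed line marks equal change and orange points were called in the interaction test. SEMA7A lies at 2.70 and 1.36, right of the line, and SEMA3C at -0.76 and 0.08, above it. PLXND1, PLXNA4 and SEMA6B are not drawn because they were not tested in GCN2KO cells.

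The 8 genes with a positive interaction were SEMA3C at 0.83 ± 0.075 (SE, adjusted p = 4.04e-08), SEMA3F at 0.57 ± 0.094 (SE, adjusted p = 1.00e-04), PLXNB1 at 0.69 ± 0.12 (SE, adjusted p = 2.31e-04), PLXNA2 at 0.57 ± 0.14 (SE, adjusted p = 0.00411), SEMA3E at 0.64 ± 0.18 (SE, adjusted p = 0.012), SEMA4B at 0.38 ± 0.12 (SE, adjusted p = 0.0197), SEMA6C at 0.69 ± 0.23 (SE, adjusted p = 0.0308) and SEMA6D at 0.57 ± 0.19 (SE, adjusted p = 0.0339). All 8 were called lower after HDW in WT cells, with log2 fold changes from -0.25 to -1.11, and of them SEMA6D was also called in GCN2KO cells. The interaction and the response of WT cells share the same WT libraries. For SEMA3C the GCN2KO means were 2948 ± 226 unwounded and 3094 ± 186.3 after HDW (SD, n = 5), near the WT HDW mean of 2687 rather than the WT unwounded mean of 4551. For SEMA3F they were 4933 ± 509.6 and 4697 ± 211.1, against 4938 and 7683. The calls of SEMA6C and SEMA6D depended on single libraries. That of SEMA6C was lost with no filter (adjusted p = 0.0739) and without any 1 of WT unwounded replicates 3 and 5, WT HDW replicates 2 and 5, GCN2KO unwounded replicate 3 and GCN2KO HDW replicate 3 (interactions of 0.62 to 0.67, adjusted p = 0.0515 to 0.0614). That of SEMA6D was lost without any 1 of WT unwounded replicates 1 and 3, WT HDW replicates 2, 3 and 5, GCN2KO unwounded replicates 3, 4 and 5 and GCN2KO HDW replicates 4 and 5 (interactions of 0.46 to 0.56, adjusted p = 0.0508 to 0.0773). For SEMA3A and SEMA3B, which rose in both genotypes, the interaction was 0.30 ± 0.2 (SE, adjusted p = 0.292) and -0.53 ± 0.23 (SE, adjusted p = 0.101), and for NRP1 -0.27 ± 0.11 (SE, adjusted p = 0.0784).

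The partners of the family were read from 5 lists of 53 genes. Before wounding 46 were tested, and 22 were called higher and 16 lower in GCN2KO cells (47.8% and 34.8%, against 33.4% and 33.1% of all genes). Of these, 6 were higher and 3 lower DE genes, where 8.21% and 8.22% of all genes were. Between wounded cells 25 were called higher and 16 lower (54.3% and 34.8%, against 35.9% and 35.8%). There 4 were higher and 3 lower DE genes, where 7.1% and 7.83% of all genes were. RND1 and CD72, which had few reads in WT libraries, were among the higher DE genes in both states. In response to HDW 18 were called higher and 11 lower of 47 tested in WT cells (38.3% and 23.4%, against 26.1% and 25.2%), and 9 and 2 of 46 in GCN2KO cells (19.6% and 4.35%, against 11.9% and 10.8%). The list of 11 small GTPases linked to plexins had 10 genes tested between genotypes, and 10 were called higher before and 9 after HDW, at median log2 fold changes of 0.55 and 0.46. Of all genes 33.4% and 35.9% were called higher, with medians of 0.0042 and 0.002. RND1, a GTPase that binds the inner part of plexins, had 11.01 ± 6.148 normalized read counts (SD, n = 5) in unwounded WT and 98.16 ± 16.35 in unwounded GCN2KO cells, log2 fold changes of 3.12 ± 0.27 (SE, adjusted p = 5.04e-08) before and 2.27 ± 0.19 (SE, adjusted p = 9.34e-08) after HDW. Its raw reads were few in WT libraries, at 3 to 20 before and 12 to 31 after HDW. GCN2KO libraries had 63 to 137 and 62 to 123, and before HDW RND1 passed the filter through them. RHOD and RND3 of the same list had 0.86 ± 0.089 (SE, adjusted p = 3.27e-07) and 0.69 ± 0.076 (SE, adjusted p = 6.97e-07) before HDW. The other 4 lists had genes in both directions.

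Among the 13 co-receptors and receptor partners, 9 were tested, with 3 called higher and 5 lower in each state (33.3% and 55.6%). Over all genes 33.4% were called higher and 33.1% lower before HDW, and 35.9% and 35.8% after it. L1CAM, an adhesion molecule that forms a receptor for SEMA3A with NRP1, was higher in GCN2KO cells, with 137.1 ± 29.86 against 736.5 ± 129.2 normalized read counts (SD, n = 5) before HDW, by log2 fold changes of 2.43 ± 0.15 (SE, adjusted p = 6.94e-10) and 1.90 ± 0.12 (SE, adjusted p = 1.01e-08). NRCAM, its relative that pairs with NRP2, was lower, by -1.20 ± 0.11 (SE, adjusted p = 5.56e-08) and -1.97 ± 0.076 (SE, adjusted p = 1.60e-10). After HDW NRCAM rose by 1.28 ± 0.071 (SE, adjusted p = 1.85e-09) in WT and 0.53 ± 0.11 (SE, adjusted p = 0.00492) in GCN2KO cells, and the interaction was -0.76 ± 0.13 (SE, adjusted p = 1.62e-04). CD72, a partner of SEMA4D on B cells, was higher by 1.20 ± 0.36 (SE, adjusted p = 0.00719) and 1.20 ± 0.24 (SE, adjusted p = 4.45e-04), on 1 to 21 raw reads per WT and 18 to 49 per GCN2KO library. In both states CD72 passed the filter through its GCN2KO libraries. It could hardly have been called lower, and it is among the 3 called higher.

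All 4 of the other neuropilin ligands, which are growth factors of the VEGF group, were called between genotypes, 3 higher and 1 lower in each state. Over all genes 33.4% were called higher and 33.1% lower before HDW, and 35.9% and 35.8% after it. VEGFA had 1566 ± 192.5 normalized read counts (SD, n = 5) in WT and 4191 ± 362.9 in unwounded GCN2KO cells, a log2 fold change of 1.42 ± 0.086 (SE, adjusted p = 8.00e-10), and 0.79 ± 0.094 (SE, adjusted p = 3.73e-06) after HDW. PGF was higher by 1.15 ± 0.074 (SE, adjusted p = 1.70e-09) and 1.00 ± 0.1 (SE, adjusted p = 9.53e-07), and VEGFC by 0.31 ± 0.076 (SE, adjusted p = 0.00166) and 0.66 ± 0.062 (SE, adjusted p = 3.43e-07). VEGFB was lower, by -1.03 ± 0.072 (SE, adjusted p = 3.81e-09) and -1.24 ± 0.061 (SE, adjusted p = 1.07e-09). In WT cells VEGFA rose after HDW by 0.79 ± 0.1 (SE, adjusted p = 1.25e-05), and its interaction was -0.63 ± 0.13 (SE, adjusted p = 0.0013). Of the 9 GEFs, GAPs and adaptors linked to plexins, 2 were called higher and 3 lower before HDW (22.2% and 33.3%, against 33.4% and 33.1% of all genes). After HDW 5 were called higher and 3 lower (55.6% and 33.3%, against 35.9% and 35.8%). SH3BP1, a GAP for Rac, was lower by -1.44 ± 0.078 (SE, adjusted p = 2.51e-10) and -1.31 ± 0.095 (SE, adjusted p = 2.90e-08), with 38.5% of its exonic bases shared with another gene. Of the 14 tested MICALs, CRMPs and kinases, 4 were called higher and 7 lower before HDW (28.6% and 50%), and 5 and 7 after it (35.7% and 50%). MICAL2, an enzyme that oxidizes actin, was higher by 1.10 ± 0.11 (SE, adjusted p = 2.64e-07) and 0.67 ± 0.077 (SE, adjusted p = 2.79e-06).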

How the data were processed

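Per the labels and the study's methods, the authors used Trimmomatic to trim reads, STAR to align them (GRCh38) and featureCounts to count those that mapped uniquely to exons. For each library they deposited raw counts by Ensembl gene, not normalized. The annotation release, strandedness and how overlapping genes were counted are not given in the sources used here. GENCODE release 44 gave symbols, positions and exon lengths, and 1090 IDs had no match. The members and lists were chosen with earlier results of these data known. Members that were DE genes in any comparison are given in every library, and the others by their means or tests. Pathway genes are given where they were DE genes, and of the rest RHOD, RND3 and VEGFC alone are shown.

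Groups were compared on the counts with edgeR 4.0.16 in R 4.3.3 (quasi-likelihood test, TMM, filterByExpr with minimum count 10 and minimum total count 15), on 10 samples per comparison and all 20 for the interaction. P-values were Benjamini-Hochberg adjusted over all genes tested. A gene was called at an adjusted p of at most 0.05, and a DE gene also changed by 1 or more on the log2 scale, the thresholds used by the authors. Dividing the log2 fold change, without its sign, by the root of the F statistic gave its SE. For normalized read counts, TMM was run over the 20 libraries together. Values of a group are listed in the order of the replicate numbers in the labels. Nothing says that replicates were separately derived lines, so p-values measure the spread between these cultures. No 2 libraries were alike within sampling noise (lowest chi-square per degree of freedom 2.41).

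Alternatives included all 20 samples in 1 fit, the replicate block, leaving out each sample, no filter on low counts, a minimum mean of 50 counts, scaling by library size alone, DESeq2 1.42.0 and edgeR with the DESeq2 size factors. The planned comparison of protein sequences was not run, because no protein table was used here. Tables and figures were made with Python 3.11, pandas 2.3.3, numpy 2.4.6 and matplotlib 3.10.9.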

Additional observations from a re-analysis of the deposited data

Results flagged for a closer look

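In 6 of 116 groups of 5 libraries (5.17%), 1 library stood apart from the other 4 by Dixon's criterion, which chance meets in about 1 of 20 groups. SEMA4A had 410.4 normalized read counts in WT unwounded replicate 2, against 484.1 to 498.8 in the other 4 libraries, and SEMA4C had 587.1 in the same library, against 530.1 to 543.6. In GCN2KO HDW replicate 5, SEMA4A had 221.2, against 165.5 to 180.3, and SEMA4B had 3124, against 2469 to 2612. SEMA4D had 132.6 in WT HDW replicate 4, against 161.5 to 172.1, and SEMA4F had 563 in WT unwounded replicate 4, against 463 to 487.7. All 6 were class 4 semaphorins, with some above and some below the rest of their group.

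For 10 genes the fold change after HDW differed between genotypes by the interaction test. Of 29 members tested, 27.6% were called with a positive and 6.9% with a negative interaction, where 11.2% and 12.5% of all 16536 genes were. The interaction was negative for PLXND1 (-2.24), on 1 to 5 reads per GCN2KO library, and for SEMA7A (-1.35). It was positive for SEMA3C (0.83), PLXNB1 (0.69), SEMA6C (0.69), SEMA3E (0.64), SEMA3F (0.57), PLXNA2 (0.57), SEMA6D (0.57) and SEMA4B (0.38), all on the log2 scale. The calls of SEMA6C and SEMA6D depended on single libraries.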

How the results depend on the processing

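No called member changed direction under any alternative. Of the members called, 22 of 23, 22 of 23, 18 of 20, 4 of 5 and 8 of 10 were called in every alternative that tested them, in the order of GCN2KO against WT unwounded and after HDW, HDW in WT and in GCN2KO cells, and the interaction. Of the DE genes, 12 of 12, 7 of 9, 4 of 4, 2 of 2 and 2 of 2 were DE genes in every alternative that tested them, the exceptions being SEMA5A and SEMA5B after HDW. A mean of at least 50 counts removed 4 to 6 members per comparison from the tests, of which PLXND1, PLXNA4, SEMA5B and SEMA6C had been called in at least 1. It left 1 higher DE gene between genotypes after HDW, and 1 gene called lower and 1 lower DE gene in the interaction. In WT cells after HDW the lower DE genes were 2 with DESeq2 and 2 with no filter, SEMA3G being added, and 1 to 2 when each sample was left out, SEMA3E being added without WT HDW replicate 1 (-1.03) or WT unwounded replicate 2 (-1.01). In GCN2KO cells after HDW, 7 genes were called higher and 3 lower when all 20 samples were fitted together, and 0 to 2 were called lower when each sample was left out. The shares of all genes called under these alternatives are not given here. Such changes in number are therefore not read as results about the members.

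Samples of the same replicate number deviated together by a mean correlation of 0.023, 0.033, 0.011 and -0.109 in the 4 comparisons, so the numbers were not taken to pair the samples. With the replicate block, 5 members were called higher and 19 lower between genotypes before HDW, 6 and 17 after HDW, 9 and 12 for HDW in WT and 4 and 1 in GCN2KO cells, and 8 and 2 in the interaction. The shares of all genes called with the block are not given here. By the longest transcript in place of merged exons, the levels in WT unwounded cells were 122 for PLXNB2, 74.1 for SEMA3F, 61.5 for SEMA4B, 39.8 for PLXNB1 and 32.5 for SEMA3C, in the same order. Depth limits PLXND1, PLXNA4, PLXNC1, SEMA3G, SEMA5B, SEMA6A and SEMA6B, with at most 59 reads in any library.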

Other observations

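Genes near the members were read for regional differences between genotypes. For 29 of the 31 genes, the median log2 fold change of the genes tested within 5 megabases lay between -0.29 and 0.29 in GCN2KO against WT unwounded cells. The other 2 were SEMA5A and SEMA6A, both on chromosome 5, with medians of 0.47 over 17 genes and 0.53 over 29 genes. After HDW these medians were 0.45 over 18 genes and 0.62 over 30 genes. SEMA5A, at -1.57 and -1.10, went against its neighbours, of which 11.8% and 5.56% had a log2 fold change below 0. For SEMA3A, SEMA3D and SEMA3E, which lie together on chromosome 7, the medians after HDW were -0.43, -0.43 and -0.46, over 14 to 17 genes. Their windows overlap and hold each other, so these medians are not separate observations. SEMA3A and SEMA3D, at -2.01 and -0.48, had the sign of their windows, and SEMA3E, at 1.16, did not.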
